A study of Mus musculus with 12 samples.

Results

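The 10 genes described here belong to the cellular response to low oxygen. They are 2 subunits of the hypoxia-inducible factors (HIF), Hif1a and Epas1, the oxygen sensors Egln1 and Egln3, and 6 genes known to be induced by HIF: Ndufa4l2, Bnip3, Bnip3l, Car9, Vegfa and Kdm3a. They were chosen by name, and each gene was read at its probe set with 1 gene symbol and the highest mean over all arrays. Of the 10 genes, 9 had such a probe set among 22180 genes tested. The only probe set of Bnip3l also listed its pseudogene Bnip3l-ps, so no value is given for Bnip3l.

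HIF is a pair of proteins, an oxygen-sensitive alpha subunit (HIF-1α from Hif1a or HIF-2α from Epas1) and a stable beta subunit (Arnt). In oxygen, prolyl hydroxylases of the Egln family mark the alpha subunit for capture by the von Hippel-Lindau protein (Vhl) and breakdown, so most control of HIF-1α acts on the protein and not on its mRNA. In low oxygen the alpha subunit lasts, enters the nucleus and switches on genes for glucose use, blood vessel growth, pH control and removal of mitochondria, and fibroblasts and cells early in reprogramming are known to use this program.

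Total RNA of mouse embryonic fibroblasts was measured on 1-colour Affymetrix arrays, 3 arrays in each of 4 groups and 12 in all. The groups were Gdap1-null (KO) cells at day 4 of reprogramming, wild-type (WT) cells at day 4, KO cells at day 0 and WT cells at day 0. The Gdap1 protein sits in the outer membrane of mitochondria, and reprogramming used the 4 factors OSKM (Oct4, Sox2, Klf4 and cMyc). All cells grew in DMEM with serum. Every array carries one treatment label, which names overnight transduction with OSKM or a mock transduction, and whether day 0 cells were mock-transduced is not stated. The oxygen level of the cultures, how the Gdap1 allele was made and how many embryos gave the cells are not stated in the labels. Whether arrays of one group came from separate cultures is also not stated, so p-values measure only the spread between these samples. No label names a batch, and a batch shared by a whole group cannot be told apart from that group.

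The DNA letters that HIF is known to bind are ACGTG or GCGTG, read on either strand (CACGT or CACGC on the opposite one). They were searched in the 250 bases before each transcript start in RefSeq (build GRCm38.p6), where 7 of the 10 genes had a window, 10 windows in all. All 7 had a match in at least 1 window. Of all 32851 promoter windows of this length, 38.6% held a match, and 41.5% of 27025 genes had one, so a match is common. The 5 stretches below belong to the main oxygen sensor, Egln1, and to induced genes whose KO and WT levels are set out in the results, and are shown for the number and spacing of their matches. Capitals mark the matched letters, and each stretch is written 5′ to 3′ on the strand of the gene.
Bnip3, chr7:138909525-138909635, minus strand: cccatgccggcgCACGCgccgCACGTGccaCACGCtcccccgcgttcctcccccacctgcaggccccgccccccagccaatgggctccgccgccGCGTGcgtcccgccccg
Egln1, chr8:124949306-124949392, minus strand: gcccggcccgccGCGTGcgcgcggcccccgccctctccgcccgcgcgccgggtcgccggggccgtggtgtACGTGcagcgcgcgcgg
Egln3, chr12:54204076-54204115, minus strand: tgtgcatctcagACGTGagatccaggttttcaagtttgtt
Vegfa, an inner transcript start, chr17:46025354-46025393, minus strand: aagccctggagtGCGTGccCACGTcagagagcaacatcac
Car9, chr4:43506986-43507025, plus strand: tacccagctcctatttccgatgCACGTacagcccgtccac
The Bnip3 stretch spans bases -129 to -19 from the start. Its central CACGTG reads as ACGTG on both strands and is also the palindrome known as an E-box, the kind of site bound by Myc, one of the 4 transduced factors. That palindrome was present in 6.0% of all windows, and 16.7% of windows had 2 or more matches of either kind. The single Egln3 match began at base -229 from the start and the single Car9 match at base -18. The window at the outermost start of Vegfa held no match. Hif1a had a CACGTG at bases -135 to -130 and an ACGTG at -70, and Kdm3a a GCGTG at -27. A match describes the letters only, and binding was not measured.

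Mesenchymal genes were read as a check of the labelled cell type. Vim (vimentin), a filament protein of mesenchymal cells, lay between 12.73 and 12.85 on all 12 arrays (log2 level), and Col1a1, a collagen chain that fibroblasts secrete, between 11.14 and 11.97. These levels do not tell fibroblasts from other mesenchymal cells. The probe set of Gdap1 was dim and differed by -0.08 ± 0.12 at day 0 (log2, KO minus WT, SE, limma adjusted p = 0.831), so it checked nothing about the genotype. Of 10 measured markers of macrophages and other blood cells, 9 fell in KO against WT cells at day 4, with and without the array described next, and 9 at day 0. Over all genes 12.4% fell at day 4 (15.9% without that array) and 3.12% at day 0. Their mean, each gene centred over the 12 arrays, lay between -0.72 and -0.64 on KO day 4 arrays and between 0.53 and 1.22 on WT day 4 arrays, and between -0.84 and -0.72 on KO day 0 arrays and between 0.62 and 0.72 on WT day 0 arrays. The lowest level of any probe set was 1.33, so a level above 0 does not show that a marker was expressed. The part of these markers in the differences between KO and WT cells given below was not tested.

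One array stood apart from its group. WT day 4 array 1 had a mean correlation across genes of 0.9866 with the other WT day 4 arrays and of 0.9877 with the KO day 4 arrays. The other two WT day 4 arrays were at 0.9913 and 0.9909 with their own group, and at 0.9825 and 0.9803 with KO day 4. All 9 measured HIF genes were higher on array 1 than on both other WT day 4 arrays, which was true of 34.9% of all genes. The gap to the mean of the other two was 3.40 (log2) for Egln3 and for Ndufa4l2 and 2.61 for Bnip3, and it was 0.40 for Car9. On this array 5 of the 9 genes lay within the range of the KO day 4 arrays, as did 8676 of all 22180 genes, so lying there was common. The median gap to the KO day 4 mean was -0.15 for the 9 genes and 0.0 for all genes. It was widest for Vegfa, at -0.38. Its macrophage markers, in contrast, had the highest mean of all 12 arrays, 1.22. The tests of the 9 genes that rest on WT day 4, and most list counts reported for that group, are therefore given with and without array 1. Not every comparison is counted for the interferon and marker lists. The fits without array 1 keep 2 WT day 4 arrays. Because all 9 genes were higher on it, leaving it out lowers the WT day 4 mean of each. The p-values of those fits are thus not independent of these genes.

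The 2 HIF alpha subunits had different patterns. Hif1a, read as log2 level, was 10.10, 10.24 and 10.04 in KO day 4 cells and 9.97, 9.54 and 9.15 in WT day 4 cells, and 10.36, 10.40 and 10.37 in KO day 0 cells and 9.81, 9.79 and 9.86 in WT day 0 cells. The KO arrays lay above all WT arrays of the same day, on both days. Epas1, the HIF subunit best known from endothelial and kidney cells, was 8.19, 7.75 and 8.12 in KO day 4 cells and 8.03, 7.00 and 7.15 in WT day 4 cells, and 6.19, 5.99 and 5.98 in KO day 0 cells and 6.11, 6.12 and 6.30 in WT day 0 cells. Every day 4 array was above every day 0 array for Epas1, and the genotypes overlapped on both days.

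The oxygen sensors differed by genotype. Egln1 (PHD2), the main HIF prolyl hydroxylase, was 9.13, 9.21 and 9.03 in KO day 4 cells and 9.10, 8.01 and 8.11 in WT day 4 cells, and 8.78, 8.88 and 8.82 in KO day 0 cells and 8.41, 8.27 and 8.42 in WT day 0 cells. Its KO arrays were above the WT arrays at day 0, and at day 4 array 1 of the WT group lay among them. Egln3 (PHD3), a hydroxylase that HIF itself induces, was 10.37, 9.76 and 10.32 in KO day 4 cells and 9.88, 6.19 and 6.76 in WT day 4 cells, and 8.60, 8.43 and 8.57 in KO day 0 cells and 6.37, 7.18 and 6.04 in WT day 0 cells. The 4 group means of Egln3 ran KO day 4 (10.15), KO day 0 (8.53), WT day 4 (7.61) and WT day 0 (6.53), and the arrays of WT day 4 overlapped with those of each other group.

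Among the targets that act on mitochondria, Ndufa4l2, a HIF-induced relative of a respiratory chain subunit that is known to lower mitochondrial respiration, was 8.75, 9.09 and 8.78 in KO day 4 cells and 8.69, 5.35 and 5.22 in WT day 4 cells, and 5.95, 5.86 and 6.01 in KO day 0 cells and 5.21, 4.86 and 5.19 in WT day 0 cells. Without array 1 the WT day 4 arrays were below all KO day 0 arrays. Bnip3, an outer mitochondrial membrane protein that recruits the autophagy machinery, was 9.05, 9.04 and 9.07 in KO day 4 cells and 8.79, 6.24 and 6.13 in WT day 4 cells, and 8.03, 8.10 and 7.98 in KO day 0 cells and 6.75, 6.85 and 6.93 in WT day 0 cells. WT day 4 arrays 2 and 3 were the lowest of all 12 arrays for Bnip3.

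Vegfa, the main secreted growth signal for blood vessels, was 9.93, 9.88 and 9.71 in KO day 4 cells and 9.46, 8.28 and 8.27 in WT day 4 cells, and 9.59, 9.61 and 9.72 in KO day 0 cells and 8.77, 9.05 and 8.95 in WT day 0 cells. Its KO arrays did not overlap with the WT arrays on either day. Kdm3a, a histone H3 lysine demethylase, was 8.57, 8.36 and 8.50 in KO day 4 cells and 8.38, 7.85 and 7.99 in WT day 4 cells, and 7.77, 7.87 and 7.94 in KO day 0 cells and 7.45, 7.51 and 7.54 in WT day 0 cells. Within each genotype its day 4 arrays were above its day 0 arrays. Car9, a cell-surface carbonic anhydrase with a part in pH control, had 2 probe sets with different patterns. The one with the higher mean ranged from 5.23 to 5.91 over all 12 arrays, with overlap between KO and WT on both days. The other was 6.96, 7.07 and 6.66 in KO day 4 cells and 5.72, 4.50 and 3.81 in WT day 4 cells, and 4.85, 4.72 and 4.46 in KO day 0 cells and 4.42, 4.14 and 4.28 in WT day 0 cells. On that probe set KO day 4 was above every other array.

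**Figure D1:**
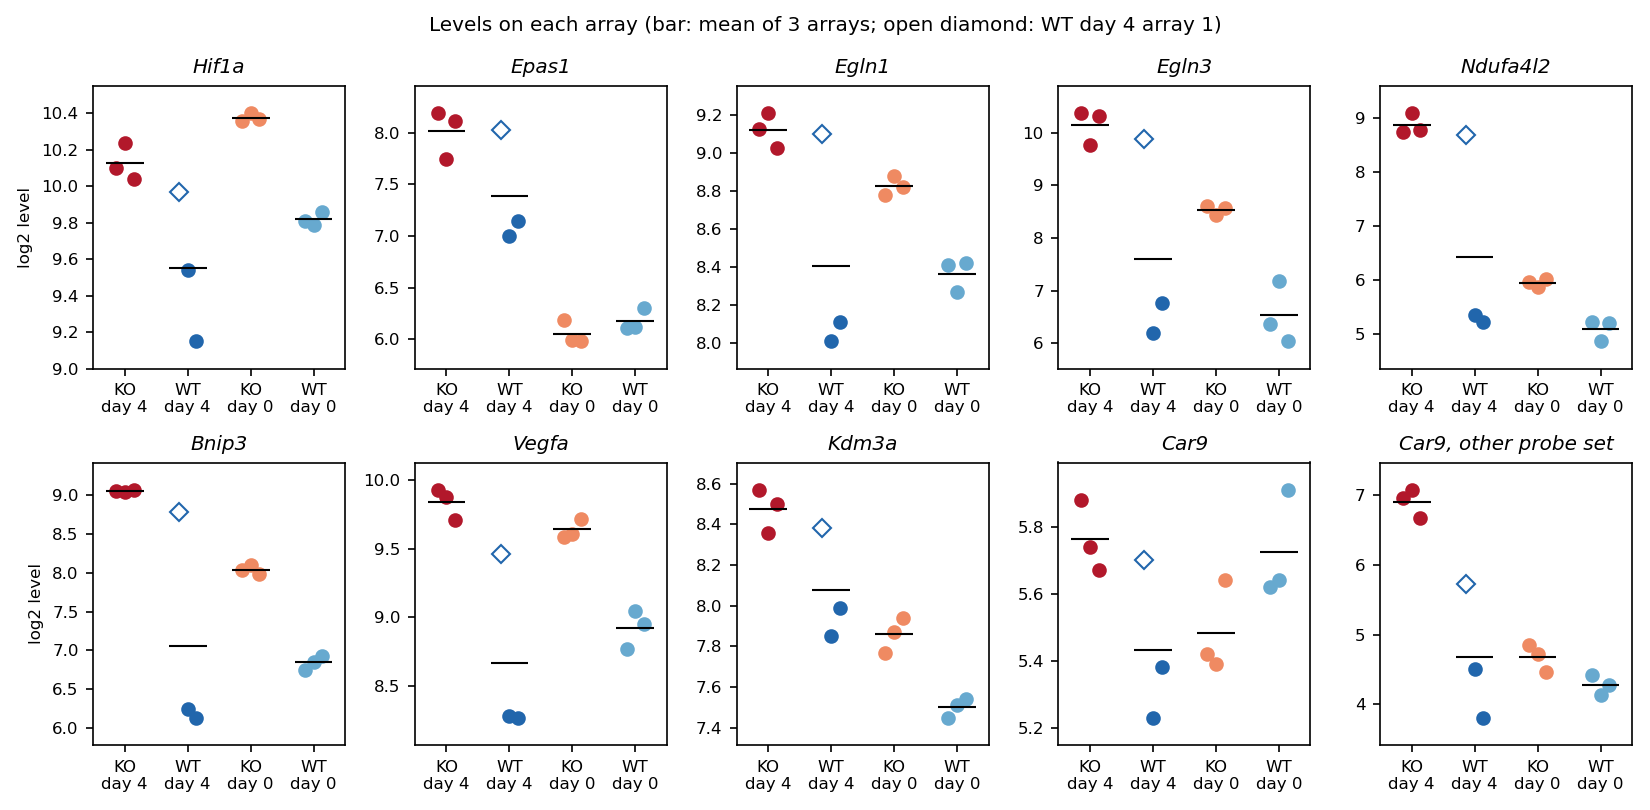
Log2 level of each measured HIF gene on each array (vertical axis) in the 4 groups, with bars at the group mean of 3 arrays and WT day 4 array 1 as an open diamond. The diamond lies near the KO day 4 arrays in most panels, for example at 8.79 for Bnip3, against 6.24 and 6.13 for WT day 4 arrays 2 and 3.

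The comparison of KO with WT cells at day 4 asked how expression differed between these groups early in reprogramming. All 9 measured genes were higher on average in KO cells, and 7 rose: Hif1a, Egln1, Egln3, Ndufa4l2, Bnip3, Vegfa and Kdm3a. Over all genes tested, 8.34% rose and 12.4% fell in this comparison. The median difference of the 9 genes was 0.72 (log2), and of all genes 0.00. The arrays measure RNA of whole cultures, so more cells with a transcript and more transcript per cell cannot be told apart.

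At day 4 Vegfa rose by 1.17 ± 0.24 (log2, SE, n = 3 arrays a group), a 2.25-fold difference (limma, adjusted p = 0.00473). Bnip3 rose 3.99-fold (2.00 ± 0.50, adjusted p = 0.0132), Egln3 5.81-fold (2.54 ± 0.69, adjusted p = 0.0201) and Ndufa4l2 5.49-fold (2.46 ± 0.65, adjusted p = 0.0181). The remaining rises were smaller, 1.49-fold for Hif1a (adjusted p = 0.0184), 1.64-fold for Egln1 (adjusted p = 0.0294) and 1.32-fold for Kdm3a (adjusted p = 0.0300). Epas1 (0.63 ± 0.21, adjusted p = 0.0542) and Car9 (0.33 ± 0.13, adjusted p = 0.0836) did not pass. The other probe set of Car9 rose by 2.22 ± 0.36, or 4.66-fold (adjusted p = 0.00274, over all probe sets). The other probe set of Hif1a differed by 0.47 ± 0.14 and did not pass (adjusted p = 0.0537). Without array 1 these differences were 2.74 ± 0.20 for Car9 (adjusted p = 2.63e-05) and 0.55 ± 0.15 for Hif1a (adjusted p = 0.0357).

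Without WT day 4 array 1 all 9 genes rose, against 10.8% higher and 15.9% lower among all genes. That fit has 2 WT day 4 arrays, and leaving out an array on which all 9 were high raises each of these differences. Egln3 was then 12.8-fold higher in KO cells (3.67 ± 0.28), Ndufa4l2 12.1-fold (3.59 ± 0.13), Bnip3 7.30-fold (2.87 ± 0.08) and Vegfa 2.96-fold (1.56 ± 0.10), and Epas1 passed with a rise of 0.94 ± 0.13 (adjusted p = 0.000221). Other choices removed calls. With the 2 day 4 groups alone, Vegfa was the 1 gene of the 9 that rose (adjusted p = 0.0474), where 3.37% of all genes were higher and 5.3% lower. Without WT day 4 array 2 or array 3, 1 of the 9 genes passed, and without KO day 4 array 1 or array 3, 4 did. Vegfa passed in each of these fits.

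Before reprogramming, at day 0, KO arrays were above all WT arrays for 7 of the 9 genes, the exceptions being Epas1 and Car9. The share of all genes separated in this way was not counted, so how unusual this is cannot be said. None of the 9 passed the test in the model of all 12 arrays, where 2.48% of all genes rose and 3.12% fell. In that limma model 6 of 9 had an unadjusted p under 0.05. The share of all genes under that unadjusted threshold is not given, so the 6 cannot be set against it. The differences were 2.00 ± 0.69 for Egln3 (adjusted p = 0.136), 1.19 ± 0.50 for Bnip3 (adjusted p = 0.239), 0.86 ± 0.65 for Ndufa4l2 (adjusted p = 0.587), 0.72 ± 0.24 for Vegfa (adjusted p = 0.122) and 0.55 ± 0.15 for Hif1a (adjusted p = 0.0545). This model takes 1 spread from all 4 groups, so array 1 of WT day 4 widened the errors here although it holds no day 0 RNA.

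With the day 0 groups alone, 7 genes rose in KO cells (5.16% of all genes higher, 5.9% lower). The same 7 genes rose in the model without WT day 4 array 1 (4.04% higher, 4.68% lower). Bnip3 was 2.29-fold higher at day 0 (1.19 ± 0.07, adjusted p = 1.22e-05 with the 2 groups alone) and Egln3 was 3.99-fold higher (2.00 ± 0.24, adjusted p = 0.000738). Vegfa was 1.65-fold higher, Hif1a 1.47-fold and Ndufa4l2 1.81-fold, all past the threshold in these 2 fits. Egln1 (1.38-fold) and Kdm3a (1.28-fold) also passed in both. Epas1 was not among them, at -0.13 ± 0.09 (log2, KO minus WT, adjusted p = 0.431 with the 2 groups alone), nor was Car9 at -0.24 ± 0.10 (adjusted p = 0.195).

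Day 4 against day 0 within KO cells showed 3 rises among the 9 genes and no fall, against 13.8% higher and 16.9% lower over all genes. Ndufa4l2 rose 7.63-fold (2.93 ± 0.65, adjusted p = 0.00389), Epas1 3.91-fold (1.97 ± 0.21, adjusted p = 2.20e-05) and Kdm3a 1.54-fold (0.62 ± 0.12, adjusted p = 0.00146). Hif1a differed by -0.25 ± 0.15 (adjusted p = 0.258) and Vegfa by 0.20 ± 0.24 (adjusted p = 0.590). The other probe set of Car9 rose 4.66-fold (adjusted p = 0.00100). Without WT day 4 array 1, which again acts on the errors alone, 6 genes rose (15.6% of all genes higher, 18.8% lower). The added genes were Egln3 (1.62 ± 0.25), Bnip3 (1.02 ± 0.07) and Egln1 (0.30 ± 0.08). With the 2 KO groups alone 6 rose and Hif1a fell by 0.25 ± 0.08 (adjusted p = 0.0475), against 14% higher and 17.1% lower over all genes.

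In WT cells, day 4 against day 0, Epas1 rose 2.32-fold (1.21 ± 0.21, adjusted p = 0.00105) and Kdm3a 1.49-fold (0.57 ± 0.12, adjusted p = 0.00329), and none of the other 7 passed (11.1% of all genes higher, 11.7% lower). Without array 1 the same 2 genes rose, Epas1 by 0.90 ± 0.13 and Kdm3a by 0.42 ± 0.09, and 5 fell: Bnip3 by 0.66 ± 0.08, Vegfa by 0.65 ± 0.10, Hif1a by 0.48 ± 0.11, Car9 by 0.42 ± 0.12 and Egln1 by 0.31 ± 0.09 (log2, SE). Over all genes 11.9% were then higher and 11.1% lower. The other probe set of Hif1a did not pass in that fit, at -0.20 ± 0.15 (limma, adjusted p = 0.514). Nor did the other probe set of Car9, at -0.12 ± 0.20 (adjusted p = 0.802). Bnip3, at 0.21 ± 0.50, and Egln1, at 0.04 ± 0.21, had the opposite sign with all arrays and did not pass there. Ndufa4l2 differed by 1.33 ± 0.65 with array 1 (adjusted p = 0.181) and by 0.20 ± 0.13 without it (adjusted p = 0.338).

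The change over reprogramming in KO cells minus that in WT cells (the difference of changes) was positive for all 9 genes. In limma 2 of 9 had an unadjusted p under 0.05, and the share of all genes under that threshold is not given. The difference of changes passed for none of the 9, against 2.15% of all genes higher and 1.81% lower. Without array 1 it passed for 7 genes, all positive, against 4.34% higher and 5.31% lower among all genes. The difference was then 2.74 ± 0.17 for Ndufa4l2 (adjusted p = 1.10e-05), 1.68 ± 0.11 for Bnip3 (adjusted p = 1.36e-05), 1.07 ± 0.17 for Epas1 (adjusted p = 0.00292) and 0.85 ± 0.13 for Vegfa (adjusted p = 0.00255). Egln1, Egln3 and Car9 were the other three. Hif1a, at 0.23 ± 0.14, and Kdm3a, at 0.20 ± 0.12, did not pass. The count for this difference was thus 0 or 7 of 9 with or without that 1 array.

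**Figure D2:**
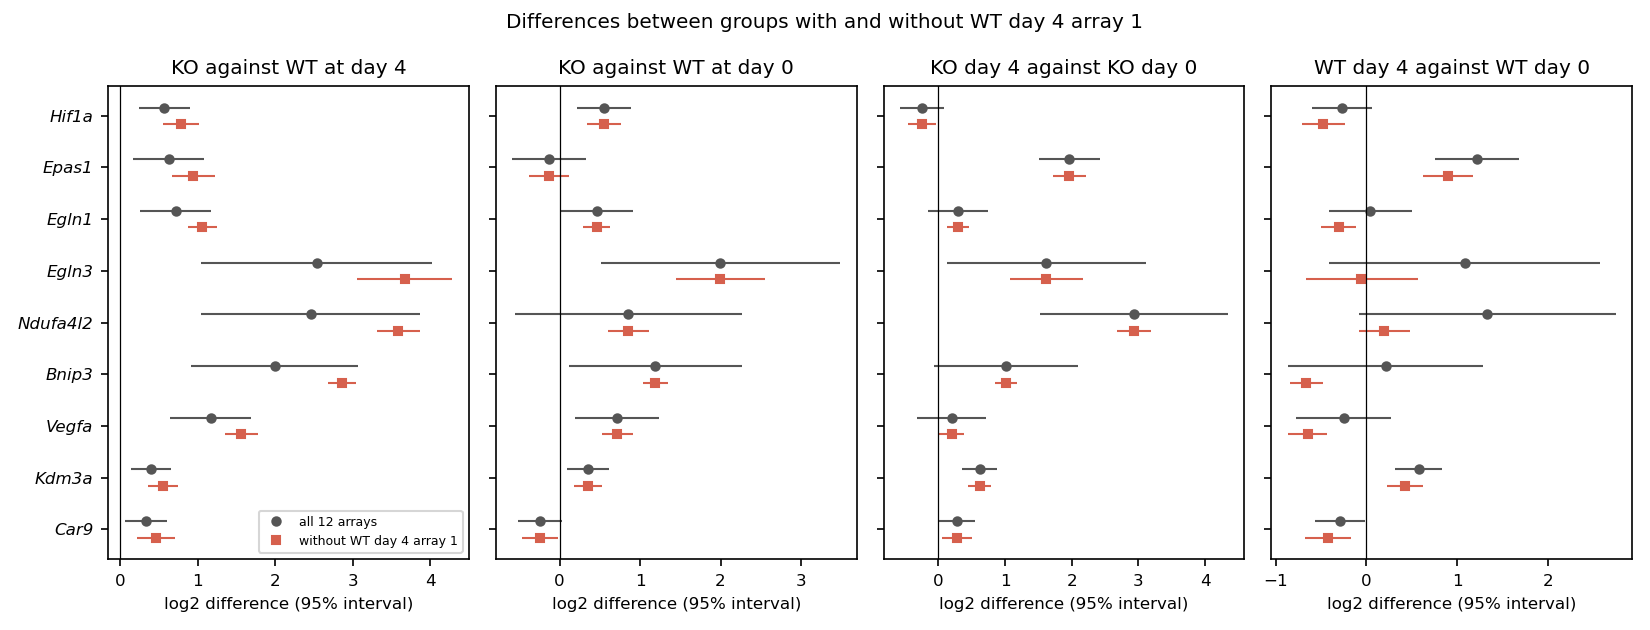
Log2 difference (horizontal axis) of each measured HIF gene in 4 comparisons, with 95% intervals from the limma model of all 12 arrays (grey circles) and without WT day 4 array 1 (red squares). At day 4 the KO minus WT difference of Ndufa4l2 was 2.46 with all arrays and 3.59 without array 1, and at day 0 the squares sit at the same values as the circles with shorter intervals.

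Other genes of the pathway were read from 3 further lists. Of 48 other genes known to be induced by hypoxia, 44 were measured, and at day 4 in KO against WT cells 23 rose and 2 fell (34 and 2 without array 1), with a median of 0.49 (log2). Among all genes 8.34% rose and 12.4% fell (10.8% and 15.9% without array 1). Cox4i2, the lung and low-oxygen form of a cytochrome oxidase subunit, rose by 1.24 ± 0.16 (adjusted p = 0.000263), and Stc2, a secreted glycoprotein, rose by 0.72 ± 0.13 (adjusted p = 0.00233). Tfrc, the transferrin receptor for iron uptake, fell by 0.88 ± 0.12 (adjusted p = 0.000383). Cox4i2 was 8.01, 7.68 and 8.01 in KO day 4 cells and 7.07, 6.42 and 6.49 in WT day 4 cells, so its groups did not overlap even with array 1.

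At day 0 the same list had 4 genes that rose in KO cells and none that fell (16 and 1 without array 1), with a median of 0.16. Among all genes 2.48% rose and 3.12% fell (4.04% and 4.68% without array 1). Angptl4, a secreted inhibitor of lipoprotein lipase, was 8.59, 8.54 and 8.54 in KO cells and 6.28, 6.54 and 6.34 in WT cells, a 4.51-fold rise (2.17 ± 0.37, adjusted p = 0.00371). Car12, a carbonic anhydrase of the cell surface like Car9, rose 2.29-fold (adjusted p = 0.0312), and Stc2 1.56-fold (adjusted p = 0.0112). Rsbn1 rose by 0.35 ± 0.08 (log2, adjusted p = 0.0288).

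Over reprogramming, 17 of the 44 rose and 2 fell in KO cells (26 and 6 without array 1), and 9 rose and 4 fell in WT cells (7 and 16 without array 1). Among all genes 13.8% rose and 16.9% fell in KO cells (15.6% and 18.8% without array 1). In WT cells 11.1% rose and 11.7% fell (11.9% and 11.1% without array 1). In KO cells Cox4i2 rose by 1.53 ± 0.16 and Rcor2, a partner of histone demethylases, by 0.96 ± 0.10, and Tfrc fell by 1.02 ± 0.12. In WT cells Rcor2 rose by 1.70 ± 0.10 and Mxi1, a Myc antagonist, by 1.24 ± 0.16, and Flt1, a VEGF receptor, fell by 1.33 ± 0.19. The median change of the list in WT cells was 0.13 with all arrays and -0.15 without array 1. The difference of the changes passed for 4 genes upward and 2 downward (22 and 3 without array 1), among them Cox4i2 (1.15 ± 0.22, adjusted p = 0.0147) and, downward, Tfrc (-0.84 ± 0.17, adjusted p = 0.0173) and Rcor2 (-0.74 ± 0.15, adjusted p = 0.0173). It passed upward for 2.15% of all genes and downward for 1.81% (4.34% and 5.31% without array 1).

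**Figure D3:**
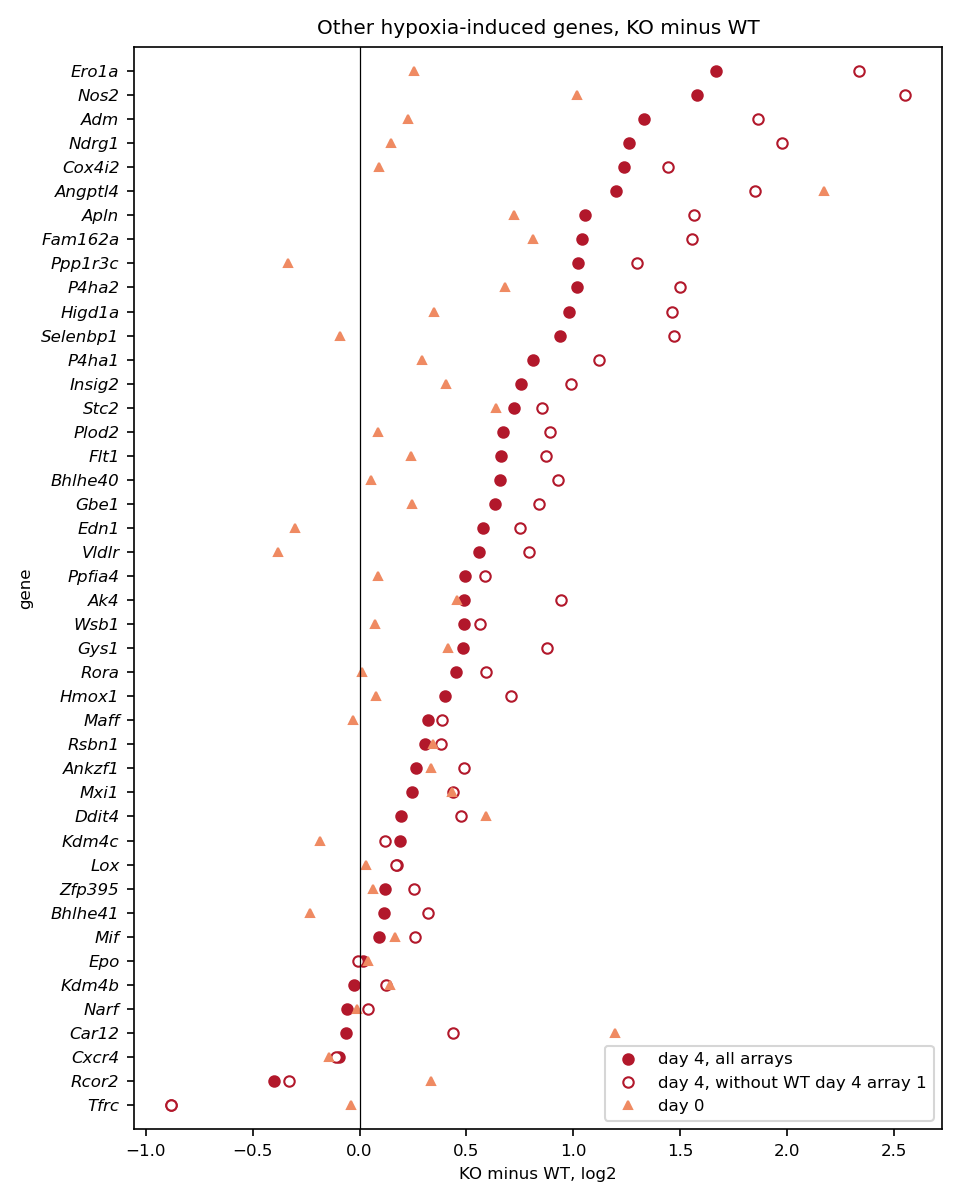
Log2 difference, KO minus WT (horizontal axis), of the 44 other hypoxia-induced genes (vertical axis, 1 row each) at day 4 with all arrays (filled circles), at day 4 without WT day 4 array 1 (open circles) and at day 0 (triangles). Angptl4 is the rightmost triangle at 2.17, and Tfrc the leftmost circle at -0.88.

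Of 19 hypoxia-induced genes of glucose uptake and glycolysis, 16 were measured, and at day 4 in KO against WT cells 8 rose and none fell (15 and 0 without array 1), with a median of 0.68. Among all genes 8.34% rose and 12.4% fell (10.8% and 15.9% without array 1). Slc2a1, the glucose transporter GLUT1, was 11.25, 10.96 and 11.06 in KO day 4 cells and 10.76, 9.29 and 9.11 in WT day 4 cells, a 2.58-fold rise (1.37 ± 0.30, adjusted p = 0.00740). Pfkp, a phosphofructokinase, rose by 1.28 ± 0.27 and Slc2a3, the glucose transporter GLUT3, by 0.96 ± 0.17. At day 0 none rose and Pfkfb4, which makes a regulator of glycolysis, fell by 0.33 ± 0.08 (adjusted p = 0.0297). Without array 1, 8 rose and 2 fell there. Among all genes 2.48% rose and 3.12% fell at day 0 (4.04% and 4.68% without array 1). Over reprogramming Slc2a3 rose 4.99-fold in KO cells (2.32 ± 0.17, adjusted p = 1.26e-06) and by 0.81 ± 0.17 in WT cells (adjusted p = 0.00369), and the difference of these changes passed (1.51 ± 0.24, adjusted p = 0.00571). Aldoc, an aldolase, rose by 2.31 ± 0.24 in KO cells and by 1.38 ± 0.24 in WT cells. In all, 6 of the 16 rose and none fell in KO cells (7 and 1 without array 1), while in WT cells 2 rose and none fell with all arrays and 2 rose and 9 fell without array 1, with medians of -0.05 and -0.34. The shares of all genes were 13.8% higher and 16.9% lower in KO cells (15.6% and 18.8% without array 1). In WT cells they were 11.1% and 11.7% (11.9% and 11.1% without array 1). The difference of changes passed for 1 gene with all arrays and for 14 without array 1, all positive. Among all genes it was higher for 2.15% and lower for 1.81% (4.34% and 5.31% without array 1).

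The oxygen sensing machinery, 15 of 16 genes measured, moved in both directions. At day 4 in KO against WT cells 5 rose and 5 fell (2 and 5 without array 1). Among all genes 8.34% rose and 12.4% fell (10.8% and 15.9% without array 1). Ep300 and Crebbp, the acetyltransferases that HIF recruits, fell by 0.58 ± 0.08 (adjusted p = 0.000542) and 0.47 ± 0.10 (adjusted p = 0.00530), and Egln2, another HIF prolyl hydroxylase, fell by 0.52 ± 0.10 (adjusted p = 0.00273). Ep300 was 7.77, 7.78 and 7.66 in KO day 4 cells and 8.15, 8.39 and 8.41 in WT day 4 cells. At day 0 none of the 15 passed (1 at an unadjusted p under 0.05 in limma), and the gene with the smallest p was Hif3a, at -0.22 ± 0.09 (adjusted p = 0.188).

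Within KO cells, day 4 against day 0, 3 of the 15 rose and 9 fell, with a median of -0.32 (13.8% of all genes higher, 16.9% lower). Hif3a, a HIF alpha relative with inhibitory forms, rose by 0.72 ± 0.09, and Elob, a subunit of the VHL ubiquitin ligase, fell by 0.50 ± 0.08. Hif3a was dim, with means of 4.27 at day 0 and 4.99 at day 4 in KO cells, under the median gene mean of 5.28. In WT cells 1 rose and 4 fell, with array 1 (11.1% of all genes higher, 11.7% lower) and without it (11.9% and 11.1%). With all arrays these were Arnt, which rose by 0.23 ± 0.07, and Cited2, a competitor of HIF for Ep300 (fell by 0.80 ± 0.08), Siah2, a ligase that targets prolyl hydroxylases (fell by 0.63 ± 0.17), Eloc (fell by 0.56 ± 0.09) and Elob (fell by 0.31 ± 0.08), the last 2 of them partners in the VHL ligase. The difference of the changes passed for Hif3a (0.54 ± 0.12, adjusted p = 0.0274) and, downward, for Ep300 (-0.58 ± 0.12, adjusted p = 0.0186), and without array 1 for 1 gene upward and 3 downward. It passed upward for 2.15% of all genes and downward for 1.81% (4.34% and 5.31% without array 1).

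Mitophagy genes, 16 of 18 measured, were listed because Bnip3 and Bnip3l act as mitophagy receptors. At day 4 in KO against WT cells Gabarapl1, an autophagosome protein, rose by 0.47 ± 0.09, and Fkbp8 (-0.48 ± 0.08), Atg7 (-0.28 ± 0.08) and Phb2 (-0.26 ± 0.07) fell. That is 1 rise and 3 falls among 16 genes, where 8.34% of all genes rose and 12.4% fell. Without array 1 the counts were 3 higher and 3 lower (10.8% and 15.9% of all genes). With the 2 day 4 groups alone they were 1 and 1 (3.37% and 5.3% of all genes). At day 0 none passed (2 at an unadjusted p under 0.05 in limma). Pink1, the kinase that marks damaged mitochondria, rose in both genotypes over reprogramming, by 0.86 ± 0.10 in KO cells (adjusted p = 3.74e-05) and by 1.09 ± 0.10 in WT cells (adjusted p = 7.61e-06). Map1lc3b rose by 0.55 ± 0.09 in KO cells and by 0.54 ± 0.09 in WT cells. In all, 4 rose and 2 fell in KO cells, and in WT cells 6 rose and 2 fell with all arrays and 3 rose and none fell without array 1. Among all genes 13.8% rose and 16.9% fell in KO cells. In WT cells 11.1% rose and 11.7% fell (11.9% and 11.1% without array 1). The difference of the changes passed for Fkbp8 alone (-0.42 ± 0.11, adjusted p = 0.0495), and without array 1 it was -0.45 for Fkbp8 (adjusted p = 0.0273), again 1 gene.

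Read array by array, the 9 HIF genes had a centred mean of 1.00, 0.90 and 0.92 in KO day 4 cells and of 0.78, -0.81 and -0.75 in WT day 4 cells. At day 0 it was -0.03, -0.04 and 0.01 in KO cells and -0.72, -0.63 and -0.64 in WT cells. The glucose list was at 0.51, 0.48 and 0.46 in KO day 4 cells and at 0.48, -0.54 and -0.60 in WT day 4 cells. On WT day 4 array 1 all 16 glucose genes and 39 of the 44 other hypoxia-induced genes were above both other WT day 4 arrays. So were all 19 measured interferon response genes, whose mean was 0.48, 1.33 and 0.67 in KO day 4 cells and 0.92, -0.41 and -0.94 in WT day 4 cells. That list also separated the genotypes at day 0, where 15 of 19 rose in KO cells (2.48% of all genes). Ifit1, for example, rose by 4.96 ± 0.49. At day 4, 8 of the 19 rose in KO against WT cells with all arrays and 17 without array 1. Among all genes 8.34% and 10.8% rose in these fits. The part of the interferon list in the HIF results was not tested. The mitophagy list did not set array 1 apart, with 0.07, 0.04 and 0.04 in KO day 4 cells and 0.08, 0.08 and 0.11 in WT day 4 cells.

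**Figure D4:**
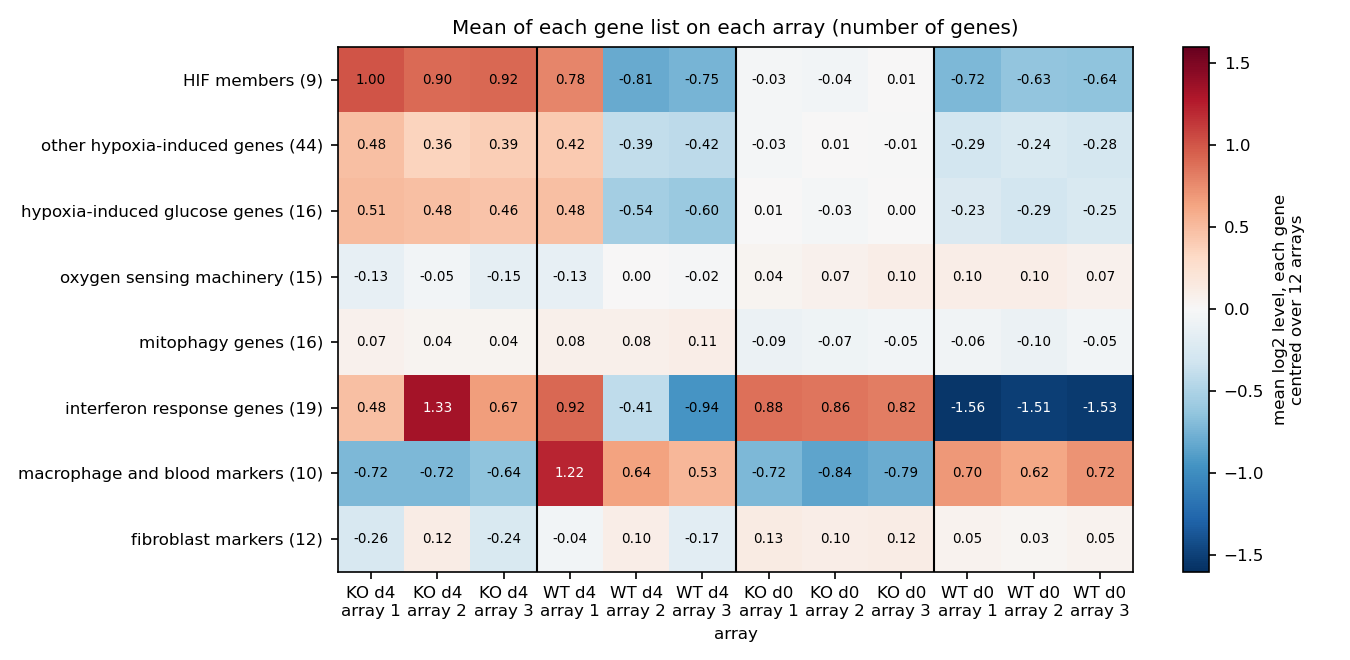
Mean log2 level of each gene list on each array, every gene centred on its own mean over the 12 arrays (red above, blue below, value in each cell), with the number of genes in brackets. The HIF, other hypoxia-induced, glucose and interferon lists on WT day 4 array 1 are near KO day 4, and the macrophage list there is at 1.22, against -0.72 to -0.64 on the KO day 4 arrays.

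Likeness to other genes was measured by Pearson's r of log2 level over the 12 arrays, which fall into 4 groups, so r describes group differences and array 1 together and carries no p. Among the 9 genes, Egln1 and Bnip3 were the most alike pair (r = 0.983), followed by Egln3 and Bnip3 (r = 0.960). Hif1a was most like Vegfa (r = 0.885) and Epas1 most like Kdm3a (r = 0.897), while Hif1a against Epas1 gave r = -0.123. Over all genes, the 3 nearest to Bnip3 were Susd6 (0.989), Fam162a (0.983) and Egln1. Those nearest to Egln1 were Fam162a, Bnip3 and Ctps (0.982), and to Egln3 they were Acvr1b (0.981), Gsap (0.976) and Susd6 (0.972).

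Ndufa4l2 was most like Pdk1 (0.984), a kinase gene of the glucose list, then H2-K1 (0.984) and Spidr (0.982). Hif1a was nearest to Fgf7 (0.982), Il1rap (0.979) and Fosl2 (0.978), and Vegfa to Sbno2 (0.974), Plekha2 (0.972) and Ctps (0.970). For Epas1 the nearest were 2610528A11Rik, Clu and Sbsn, each at 0.989, and for Kdm3a Spata6 (0.986), Gm15987 (0.981) and 4930556M19Rik (0.980). Car9, at its brighter probe set, had the lowest values, with Slitrk3 (0.892), Ecscr (0.875) and Cdkn2d (0.865).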

How the data were processed

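From 12 Affymetrix arrays the authors deposited a table of log2 levels with a column for each array. The levels were made with Affymetrix Expression Console, per the submitters' processing notes, with no version named, and the background correction, normalization and summary were not given in the sources used here. Among its 41345 probe sets, 23521 carried 1 gene symbol, 1814 several and 16010 none, and 0 columns belonged to other samples. Array medians lay between 4.68 and 4.72, and nothing was normalized further. For arrays there is no depth, and their number limits the precision. A gene was its single-symbol probe set with the highest mean, and 22180 genes were tested without a filter.

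One limma 3.58.1 model in R 4.3.3 with 4 group means was fitted to all 12 arrays (8 residual and 4.56 prior degrees of freedom). Tests were two-sided, and "rose" or "fell" means a p under 0.05 after Benjamini-Hochberg adjustment across the genes tested, or over all probe sets for a second probe set. The model was tested on simulated data. The alternatives were quantile normalization, median centring, a filter at the 25th percentile, averaged probe sets, a test of every probe set, a trended robust prior, array weights, the compared groups alone, a replicate block, a 2-fold minimum and each array left out in turn. The other probe sets of Car9 and Hif1a were added after seeing the data.

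The members, the lists and the tests were chosen with earlier results of these data known. Named are all members, up to 3 genes of a list past the threshold with the smallest p (all where 5 or fewer passed, 1 where none did), and the 3 genes most like each member. No promoter window was used for Epas1, Ndufa4l2 and Bnip3l. Marker lists of endothelial, epithelial, pluripotent and neural cells were also read.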

Additional observations from a re-analysis of the deposited data

How the results depend on the processing

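WT day 4 array 1 moved most results, as given above, and the cause was not tested. The number of the 9 measured HIF genes past the threshold was 0 for KO against WT at day 0, 1 with dim genes left out or with probe sets averaged, 6 with array weights, 7 with the 2 groups alone, and 0 to 7 over the fits that leave out 1 array. For KO against WT at day 4 it was 7, 4 with a trended robust prior or a 2-fold minimum, 1 with the 2 groups alone, and 1 to 9 with 1 array left out. For KO day 4 against KO day 0 it was 3, 5 with array weights, 7 (1 of them lower, Hif1a) with the 2 groups alone, and 3 to 6 with 1 array left out. For WT day 4 against WT day 0 it was 2, 4 with array weights, 1 with a 2-fold minimum, and 2 to 7 with 1 array left out. For the difference of changes it was 0, 1 with probe sets averaged, 3 with array weights, and 0 to 7 with 1 array left out. Only in the fit without array 1 did a sign turn in a passing call: in WT day 4 against day 0, Egln1 was at -0.305 (up to 0.240 with another array left out) and Bnip3 at -0.660 (up to 0.672). With the 2 groups alone the other hypoxia-induced genes had 4 rises and 1 fall in KO against WT at day 4 (23 and 2 with all arrays) and 17 and 1 at day 0 (4 and 0), and the glucose list 1 rise at day 4 (8) and 10 rises and 2 falls at day 0 (0 and 1), while the oxygen sensing list had 0 rises and 2 falls at day 4 (5 and 5). Among all genes these fits gave 3.37% higher and 5.3% lower at day 4, and 5.16% and 5.9% at day 0. The rise of Vegfa in KO against WT at day 4, of Epas1 over reprogramming in both genotypes and of Ndufa4l2 in KO cells held in all 22 alternatives. Bnip3 in KO against WT at day 4 held in 19 of 22, and Egln1 in 13. With the replicate number as a block the counts were 0, 8, 3, 2 and 0 in the order above, Epas1 being added at day 4. Same-numbered arrays had correlated deviations over 0.1 in 2 of 18 pairs (-0.06 to 0.182), so the numbers were not taken to pair samples. With 3 arrays a group and no depth or batch recorded, differences smaller than the spread within groups were not detectable.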

Other observations

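Markers of other cell types were read beside the HIF genes. Endothelial markers, of interest because Vegfa and Epas1 act in vessels, were all measured (10 of 10). Tek, an angiopoietin receptor, rose over reprogramming in both genotypes, by 4.12 ± 0.17 in KO cells and by 4.08 ± 0.17 in WT cells (log2, SE), while Emcn and Kdr, a VEGF receptor, fell in both. Emcn fell by 0.75 ± 0.10 in KO cells and by 2.11 ± 0.10 in WT cells, and this difference of changes passed (1.36 ± 0.14, adjusted p = 0.000546). Without WT day 4 array 1 it was 1.43. The mean level of Emcn was 4.10 in KO and 5.18 in WT cells at day 0, and 3.35 and 3.08 at day 4. Both day 4 means lay under 3.75, the 25th percentile of gene means. Whether such low levels limited the falls was not tested. In KO against WT cells Tek was the 1 endothelial marker that fell at day 4, by 0.63 ± 0.17 (2 rose and 2 fell without array 1), and at day 0 Emcn fell by 1.08 ± 0.10 and Tek by 0.67 ± 0.17. The day 4 fall is 10.0% of the list, near the 12.4% of all genes that fell. Without array 1, 10.8% of all genes rose and 15.9% fell, and at day 0 3.12% fell.

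Of 9 measured epithelial markers, 3 fell in KO against WT cells at day 4 (Krt14 by 1.27 ± 0.17, Krt8 by 0.82 ± 0.12 and Cdh1 by 0.79 ± 0.19, also 3 without array 1), and 2 fell at day 0 (Krt8 and Krt18). Among all genes 12.4% fell at day 4 (15.9% without array 1) and 3.12% at day 0. Of 8 measured neural markers 1 fell on each day, Map2, by 0.77 ± 0.20 at day 4 and by 1.22 ± 0.20 at day 0 (1 rose and 2 fell at day 4 without array 1). The day 4 fall is 12.5% of the neural list, at the share of all genes. Of 10 pluripotent markers, none passed in KO against WT cells on either day (2 at day 4 and 1 at day 0 with an unadjusted p under 0.05 in limma), and 1 rose at day 4 without array 1. Over reprogramming Pou5f1 rose by 0.38 ± 0.09 and Lin28a fell by 0.46 ± 0.16 in KO cells (13.8% of all genes higher, 16.9% lower), and none passed in WT cells (0 at an unadjusted p under 0.05 in limma). Pou5f1 encodes Oct4, which was also transduced, and whether its probe set reads the vector was not tested. Lin28a was 4.55, 3.93 and 4.71 in KO day 4 cells and 5.02, 4.70 and 4.84 in KO day 0 cells. Of 12 fibroblast markers 2 rose and 4 fell in KO against WT cells at day 4, among them Thy1 (0.66 ± 0.09) and Lum (-0.74 ± 0.19), with the same counts without array 1, and 3 rose at day 0, Dcn, Pdgfra and Lum. Among all genes 8.34% rose and 12.4% fell at day 4 (10.8% and 15.9% without array 1), and 2.48% rose at day 0.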
